A study of Mus musculus with 11 samples.

Results

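The genes described here are 7 members of the ATF6 branch of the unfolded protein response, the factor *Atf6* itself, its paralogue *Atf6b*, the related membrane-bound factors *Creb3*, *Creb3l1* and *Creb3l2*, and the proteases *Mbtps1* and *Mbtps2*. They were chosen by gene symbol, and all 7 were found among the 18667 genes listed. ATF6 is made as a transmembrane protein of the endoplasmic reticulum (ER) and is held there by the chaperone BiP. ATF6 is activated by cuts made in the Golgi, which it reaches under ER stress. The site-1 protease S1P (encoded by *Mbtps1*) cuts first, and the site-2 protease S2P (encoded by *Mbtps2*) follows. The N-terminal part so released acts in the nucleus as a transcription factor. CREB3 and its relatives are released by the same proteases. Loss-of-function variants of human *ATF6* are known to cause a cone photoreceptor disease.

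RNA was sequenced from whole cochleae of 2-month-old *Atf6*+/+ mice (5 libraries) and their *Atf6*-/- littermates (6 libraries). All mice were on a pure C57BL/6J background and so shared the *Cdh23* ahl allele, which causes hearing loss with age. The *Atf6*-/- allele carries a premature stop codon in exon 4. Sex was not given in the labels. Each library came from an individual cochlea, but whether each came from a separate animal was not stated, so p-values measure the spread between libraries. Expression is given in FPKM, read density corrected for transcript length and library size, which allows levels of different genes to be compared. Without counts of reads, no counting error can be given for single values. Lists of cochlear markers were detected in all libraries, and the summed FPKM of the spiral ligament fibrocyte list (*Coch*, *Otos*, *Pou3f4* and *Slc26a4*) lay between 3047 and 5740 in the 11 libraries. Single genes of other lists were low, such as *Slc26a5* of the hair cell list (mean 0.7 FPKM in *Atf6*+/+). *Kcne1* of the stria vascularis list was at 0.1 FPKM in *Atf6*+/+ replicate 4.

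In wild-type cochleae the members spanned from 5.93 to 43.6 FPKM. By median FPKM the order in *Atf6*+/+ was *Mbtps1* (41.9), *Atf6b* (32.9), *Creb3* (29.6), *Creb3l2* (16.5), *Atf6* (9.99), *Creb3l1* (8.52) and *Mbtps2* (7.54). The ranges of *Atf6b* and *Creb3* overlapped, although *Atf6b* was above *Creb3* in each of the 5 libraries. The ranges of *Atf6*, *Creb3l1* and *Mbtps2* also overlapped from one to the next, with *Atf6* above *Creb3l1* in 3 of 5 libraries, so their order was within the spread. In *Atf6*-/- cochleae *Atf6* moved from place 5 to place 7, below *Mbtps2* in each of the 6 libraries. The order of the other members was the same in both genotypes.

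**Figure D1:**
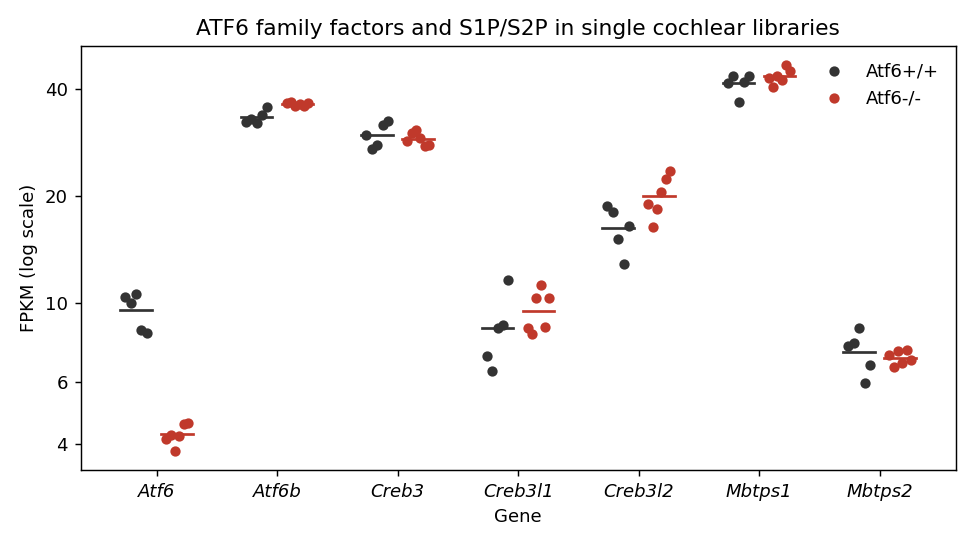
FPKM of the 7 members (log axis) in single libraries of *Atf6*+/+ (dark, n = 5) and *Atf6*-/- (red, n = 6) cochleae, with a line at each group mean. The groups do not overlap for *Atf6*, which is lower in *Atf6*-/-, and for *Atf6b*, which is higher.

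Differences between genotypes were fitted on log2(FPKM + 0.1) with limma for the 16169 genes whose mean reached 0.1 FPKM, and all 7 members passed that filter. A log2 fold change is the *Atf6*-/- minus the *Atf6*+/+ mean on that scale. After Benjamini-Hochberg adjustment over all genes tested, 1 of the 7 members, *Atf6*, had an adjusted p under 0.05, against 0.068% of all genes. A looser rule, called unadjusted below, asks for p up to 0.05 before adjustment and a log2 fold change beyond 0.05 in either direction. By this rule 3 of 7 members were called, against 9.85% of all genes. Of these, *Atf6* was lower (5.37% of all genes were called lower) and *Atf6b* and *Creb3l2* were higher (4.48% were called higher). The groups did not overlap for 2 of 7 members, against 1.25% of all genes. *Atf6* is the targeted gene, so its part in each of these counts follows from the design and is not a finding about the family. Of the other members, none had an adjusted p under 0.05, only *Atf6b* and *Creb3l2* were called by the unadjusted rule, and only *Atf6b* had no overlap. The median log2 fold change of the members, which is the *Mbtps1* value, was 0.07, and that of all genes tested was -0.01. The member median was 0.13 under TPM scaling, 0.0041 with the marrow score described below as a covariate and 0.026 without *Atf6*+/+ replicate 3. With each library rescaled to the same sum (TPM) the all-gene median became 0.04, and 1389 genes were called higher and 439 lower, in place of 724 and 868, so small rises and falls below depend on the scaling.

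The targeted gene, *Atf6* (NCBI gene 226641), was at 10.4, 9.99, 10.6, 8.39 and 8.25 FPKM in the *Atf6*+/+ libraries. In the *Atf6*-/- libraries its lowest value was 3.83, the median 4.22 and the highest 4.59 FPKM. Each *Atf6*-/- library was thus below each *Atf6*+/+ library, with a wide gap, and the transcript remained detected in all of them. Its fold was 0.456 (log2 fold change -1.13, 95% interval -1.32 to -0.95). A value over the whole gene does not read the altered exon. In the GENCODE vM21 annotation exon 4 takes 101 of the 7246 bases of the 16-exon transcript, and the exons after it take 94.6%. *Gm29733*, a short gene that lies between exons 3 and 4 of *Atf6* in RefSeq (GRCm38.p6) and was named after its values were seen, was listed at 0, 0, 0.19, 0.18 and 0 FPKM in *Atf6*+/+. In *Atf6*-/- it ranged from 0.36 to 1.84 FPKM with a median of 0.915, above each *Atf6*+/+ library. Since it lies within *Atf6*, reads of the 2 genes may not be separable, and whether its values reflect *Atf6* transcript was not tested.

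*Atf6b* (NCBI gene 12915) encodes the closest relative of ATF6, which is cleaved by the same proteases and activates transcription less strongly. It was at 32.4, 32.9, 32.0, 33.8 and 35.6 FPKM in *Atf6*+/+ libraries. In *Atf6*-/- libraries its lowest value was 35.8, the median 36.3 and the highest 36.6 FPKM. Each *Atf6*-/- library was above each *Atf6*+/+ library, but the nearest values, 35.6 and 35.8 FPKM, were close, and the *Atf6*-/- libraries were tightly grouped (SD 0.353 against 1.45 FPKM). The groups also did not overlap under TPM scaling, but under median-of-ratios scaling they did, with 5 of 6 *Atf6*-/- libraries above all *Atf6*+/+ libraries (exact permutation p = 0.00433). The mean was 1.09-fold higher (log2 fold change 0.12, 95% interval 0.04 to 0.20). The exact two-sided permutation test over all 462 divisions into groups of 5 and 6 gave p = 0.00216, the smallest it can give, but the adjusted p from limma was 0.391. When the marrow score described below was a covariate, *Atf6b* had a log2 fold change of 0.11 and was no longer called by the unadjusted rule.

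Taken as a pair, *Atf6* made up 24.3%, 23.3%, 24.8%, 19.9% and 18.8% of the summed *Atf6* and *Atf6b* FPKM in the *Atf6*+/+ libraries, and a lowest 9.64%, median 10.4% and highest 11.3% in the *Atf6*-/- libraries. This share does not depend on library scaling, but its numerator is the targeted gene, so its fall restates the lower *Atf6* and is not a separate finding. The sum of both genes was 42.8, 42.8, 42.6, 42.2 and 43.9 FPKM in *Atf6*+/+ and ranged from 39.7 to 41.0 FPKM, median 40.6, in *Atf6*-/-. All *Atf6*-/- sums were lower, and the mean fell by 2.33 FPKM (exact two-sided permutation test, p = 0.00216), but after TPM scaling the groups overlapped (p = 0.496 by the same exact test). Within genotypes, *Atf6* and *Atf6b* ran opposite to each other over the 11 libraries (Pearson r = -0.75 of deviations from the genotype means, n = 11), which share cochlear composition and scaling. This was not particular to the pair, since *Atf6* had r = -0.87 with *Creb3* and r = -0.56 with *Creb3l1*.

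*Creb3* (NCBI gene 12913), whose protein Luman is an ER and Golgi factor of the secretory pathway, was at 29.6, 27.1, 27.7, 31.8 and 32.5 FPKM in *Atf6*+/+ libraries. The *Atf6*-/- libraries lay between 27.6 and 30.6 FPKM with a median of 28.8, inside the *Atf6*+/+ range. The log2 fold change was -0.04 (95% interval -0.16 to 0.08) and turned to 0.019 under TPM scaling, so its direction was not settled. In RefSeq *Creb3* overlaps *Gba2*, which had a log2 fold change of -0.03, and reads of overlapping genes may not be separable.

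*Creb3l2* (NCBI gene 208647), which encodes BBF2H7, a factor needed for secretion of cartilage matrix, was at 18.7, 17.98, 15.1, 12.8 and 16.5 FPKM in *Atf6*+/+ libraries. In *Atf6*-/- libraries it was lowest at 16.3, had a median of 19.8 and was highest at 23.4 FPKM. In 4 of 6 *Atf6*-/- libraries it was above all *Atf6*+/+ libraries, while the other two lay within the *Atf6*+/+ range. The mean was 1.23-fold higher (log2 fold change 0.30, 95% interval 0.06 to 0.54, limma adjusted p = 0.434), and the exact two-sided permutation test gave p = 0.0346. Without *Atf6*+/+ replicate 3, 4 or 5, or *Atf6*-/- replicate 1, 4, 5 or 6, that exact p was between 0.0571 and 0.0857. When the marrow score was a covariate, the estimate was 0.26 and *Creb3l2* was no longer called by the unadjusted rule (limma adjusted p = 0.952).

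The markers of some other cells moved with *Creb3l2*, and those of others did not. Within genotypes it correlated with the score of the spiral ligament fibrocyte list (r = 0.83, n = 11), the stria vascularis list (r = 0.79) and the hair cell list (r = 0.73), a score being the mean log2(FPKM + 0.1) of a list. Its r was lower with the cartilage (0.32) and erythroid (0.20) scores. It was negative with, among others, the macrophage (-0.54) and spiral ganglion neuron (-0.36) scores. The summed fibrocyte list was at 4205, 4590, 3047, 3234 and 4457 FPKM in *Atf6*+/+ and between 3977 and 5740 FPKM, median 4857, in *Atf6*-/-, with *Coch* the most abundant gene, no gene at 0, and 4 of 4 log2 fold changes above 0. *Atf6*+/+ replicates 3 and 4, with the lowest *Creb3l2*, also had the lowest fibrocyte sums. In a bulk sample, fewer cells of a type and less RNA per cell cannot be told apart, and the part of these cells in the *Creb3l2* difference was not tested. Between genotypes, the erythroid list differed in the other direction from the fibrocyte list. Its median was 14862 FPKM in *Atf6*+/+ and 4935 FPKM in *Atf6*-/-, led by *Hba-a1*, with no gene at 0. Its log2 fold changes were below 0 for 8 of 8 genes, and 6 were called lower by the unadjusted rule, against 5.37% of all genes. The neutrophil list, led by *S100a9*, had medians of 545.7 and 250.3 FPKM. Its log2 fold changes were below 0 for 8 of 8 genes, and 4 were called lower by the unadjusted rule. The B cell list had medians of 36.7 and 32.3 FPKM, most of it from *Ebf1* (22.4 and 23.6 FPKM). *Ebf1* was the 1 gene of 8 with a log2 fold change above 0 (0.07), and 2 were called lower by the unadjusted rule. The median log2 fold change of the list was -0.79. No gene of the erythroid, neutrophil or B cell list had an adjusted p (limma) under 0.05. These 3 lists make up the marrow score.

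*Creb3l1* (NCBI gene 26427) encodes OASIS, a factor known for its role in bone matrix secretion. It was at 7.10, 6.44, 8.52, 8.66 and 11.6 FPKM in *Atf6*+/+ and lowest at 8.18, median 9.43 and highest at 11.2 FPKM in *Atf6*-/- libraries. The groups overlapped, with no *Atf6*-/- library above the highest *Atf6*+/+ library (log2 fold change 0.19, 95% interval -0.12 to 0.49, limma adjusted p = 0.649). Over the 11 libraries its deviations from the genotype means followed the osteoblast and bone score (r = 0.97) and the cartilage score (r = 0.78). The bone list, led by *Bglap*, was at 272.5, 233.4, 552.1, 770.3 and 1727 FPKM in *Atf6*+/+ and between 176.1 and 695.4 FPKM, median 406.9, in *Atf6*-/-, with no gene at 0. Log2 fold changes were above 0 for 0 of 8 bone genes (median -0.33), the other direction from *Creb3l1*, and for 4 of 5 cartilage genes (median 0.28). Libraries with larger bone sums had more *Creb3l1* in each genotype, with the exception that *Atf6*-/- replicate 4 exceeded replicate 6, and *Atf6*+/+ replicate 5 was highest in both. When the marrow score was a covariate, the estimate for *Creb3l1* was 0.35 and it was not called by the unadjusted rule (limma adjusted p = 0.936). When the bone score was a covariate, the estimate was 0.33 and *Creb3l1* was called by that rule (limma adjusted p = 0.110). Without *Atf6*+/+ replicate 5 it was also called (0.31, limma adjusted p = 0.416), but the exact permutation p was 0.0667. Without *Atf6*+/+ replicate 2 the estimate was 0.10 (limma adjusted p = 0.809), so it depended on single libraries.

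**Figure D2:**
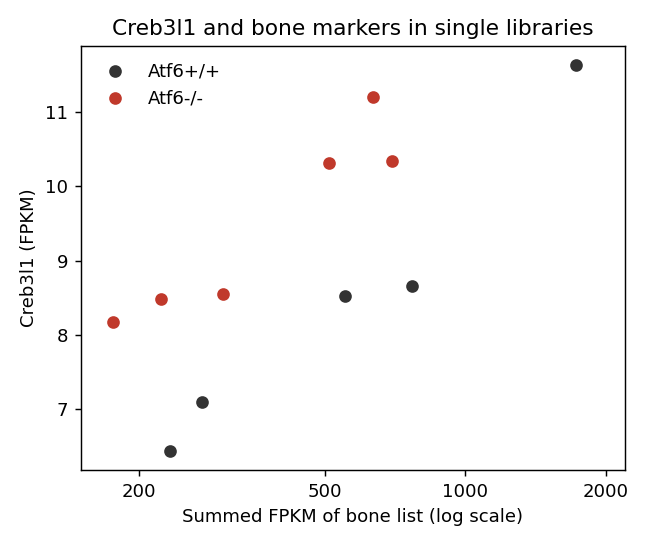
*Creb3l1* FPKM against the summed FPKM of 8 bone genes (log axis) in single libraries of *Atf6*+/+ (dark) and *Atf6*-/- (red) cochleae. *Creb3l1* tends to be higher where the bone sum is higher, and *Atf6*+/+ replicate 5 stands at 1727 FPKM for the bone list and 11.6 FPKM for *Creb3l1*.

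The summed FPKM of *Creb3*, *Creb3l1* and *Creb3l2* was 55.4, 51.6, 51.3, 53.2 and 60.6 in *Atf6*+/+ and between 54.5 and 61.5, median 58.9, in *Atf6*-/- libraries. The groups overlapped (exact two-sided permutation test, p = 0.0801). The p was 0.0143 without *Atf6*+/+ replicate 5, 0.0476 without *Atf6*-/- replicate 2 and 0.00433 under TPM scaling, all by the same exact test. By that test it was as high as 0.157 with another single library left out. *Creb3l3*, a liver factor of the same family, was at most 0.11 FPKM in any library and was not tested, and *Creb3l4* was at 3.46 ± 1.18 FPKM (SD, n = 5) and 4.13 ± 0.946 FPKM (SD, n = 6). The log2 fold change of *Creb3l4* was 0.30, but -0.25 with the marrow score as a covariate and 0.09 without *Atf6*+/+ replicate 3, so its direction was not settled.

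Neither protease was called by either rule. *Mbtps1* (NCBI gene 56453) was at 41.5, 43.6, 36.8, 41.9 and 43.6 FPKM in *Atf6*+/+ libraries and between 40.4 and 46.6 FPKM, median 43.3, in *Atf6*-/- libraries. The groups overlapped, and 2 of 6 *Atf6*-/- libraries were above the *Atf6*+/+ range (log2 fold change 0.07, 95% interval -0.05 to 0.18, limma adjusted p = 0.663). That estimate was 0.0041 with the marrow score as a covariate and 0.026 without *Atf6*+/+ replicate 3, and *Mbtps1* followed the fibrocyte score within genotypes (r = 0.80, n = 11). *Mbtps2* (NCBI gene 270669), on the X chromosome, was at 7.54, 7.70, 8.47, 5.93 and 6.68 FPKM and between 6.59 and 7.35 FPKM, median 7.01. All *Atf6*-/- values were inside the *Atf6*+/+ range (log2 fold change -0.04, 95% interval -0.23 to 0.14, limma adjusted p = 0.890), and the sign turned, to 0.015 under TPM scaling and 0.016 without *Atf6*+/+ replicate 3. *Mbtps2* contains *Yy2* in RefSeq, a gene at 0.658 and 0.602 FPKM on average. The ratio of *Mbtps1* to *Mbtps2* was 5.51, 5.66, 4.34, 7.07 and 6.52 in *Atf6*+/+ and between 5.93 and 6.51, median 6.20, in *Atf6*-/- libraries (exact two-sided permutation test, p = 0.444). The mean ratio was higher by 0.38 in *Atf6*-/-. With single libraries left out, that difference lay between 0.012 and 0.694, and the exact permutation p between 0.0714 and 0.962.

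Beyond the members, the list of ATF6 regulators and partners held 14 genes, of which 2 were called higher and 0 lower by the unadjusted rule, with a median log2 fold change of 0.06 (0.12 under TPM scaling). For this and the lists that follow, the shares over all genes are 4.48% called higher and 5.37% lower. *Wfs1*, which encodes an ER membrane protein whose mutation causes deafness, had a mean of 32.3 ± 1.55 FPKM (SD, n = 5) and 36.4 ± 1.17 FPKM (SD, n = 6), with 5 of 6 *Atf6*-/- libraries above all *Atf6*+/+ libraries (log2 fold change 0.17, limma adjusted p = 0.295). For *Syvn1*, an ER ubiquitin ligase, the difference was 0.13 on the log2 scale (limma adjusted p = 0.480). The BiP gene *Hspa5*, the most abundant of the list, had a log2 fold change of -0.05. Among 10 genes of ER-to-Golgi transport and S1P licensing, 3 were called higher and 0 lower. The list median was 0.02, and it was 0.08 under TPM scaling, 0.0049 with the marrow score as a covariate and 0.0072 without *Atf6*-/- replicate 5. The 3 are coat protein genes of COPII vesicles, which carry ATF6 to the Golgi, but the COPII GTPase genes *Sar1a* and *Sar1b* had log2 fold changes of -0.02 and -0.09. *Sec23b* was between 24.6 and 28.9 FPKM in *Atf6*+/+ and between 29.9 and 31.0 FPKM in *Atf6*-/-, so the groups did not overlap (log2 fold change 0.16, limma adjusted p = 0.369). *Sec24c* was higher by 0.15 and *Sec24d* by 0.29 on the log2 scale (limma adjusted p = 0.397 and 0.400), each with 5 of 6 *Atf6*-/- libraries above the *Atf6*+/+ range. Of the 5 other S1P substrates, among them *Srebf1* and *Srebf2*, 0 were called, and the list median was 0.05, or -0.00065 without *Atf6*+/+ replicate 3 and 0.11 under TPM scaling.

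Downstream, 3 of 20 ATF6 target genes were called higher and 2 lower by the unadjusted rule (4.48% and 5.37% of all genes), and 0 by adjusted p (limma). The list median was -0.0038 against -0.01 over all genes, and both rose under TPM scaling, to 0.05 and 0.04. With single libraries left out the list median lay between -0.019 and 0.03, so its sign was not settled. *Hyou1*, an ER chaperone, was at 28.8 ± 2.87 FPKM (SD, n = 5) and 33.5 ± 1.19 FPKM (SD, n = 6), higher by 0.22 on the log2 scale. *Herpud1*, of ER-associated degradation, was higher by 0.19, and *Syvn1*, in this list too, by 0.13 (0.22 with the marrow score as a covariate). *Hsp90b1*, the chaperone GRP94, and *Derl3*, of ER-associated degradation, had log2 fold changes of -0.20 and -0.47. *Cryab*, the most abundant gene of the list at 598.1 and 596.2 FPKM on average, had a log2 fold change of -0.01. Of 12 SREBP target genes, controlled by factors that the same proteases release, 0 were called higher and 2 lower, *Idi1* and *Fdps* (log2 fold changes -0.13 and -0.20). The median of this list was -0.05, but 0.0079 under TPM scaling, -0.0095 with the Y-linked score in the model, and between -0.08 and -0.015 with single libraries left out. Of 8 CREB3 and OASIS target genes 1 was called, *Sec24d*, with a list median of 0.04 (0.0068 without *Atf6*-/- replicate 6). That median was 0.08 without *Atf6*+/+ replicate 5, 0.08 with the marrow score as a covariate and 0.09 under TPM scaling. Of 7 sensors and factors of the other unfolded protein response branches, *Atf5* and *Atf4* were called higher. *Atf5* was at 33.0, 35.6, 33.7, 43.0 and 41.7 FPKM in *Atf6*+/+ and between 60.7 and 75.5 FPKM in *Atf6*-/- (log2 fold change 0.87, limma adjusted p = 0.000441). With the marrow score in the model, 7 of the 13 called genes of these lists were still called, and *Sec24d*, *Hsp90b1*, *Herpud1*, *Derl3*, *Idi1* and *Atf4* were not. Of these, *Herpud1* went from 0.19 to 0.04, *Derl3* from -0.47 to -0.15 and *Sec24d* from 0.29 to 0.21 on the log2 scale. *Atf4* (0.19 and 0.21), *Hsp90b1* (-0.20 and -0.19) and *Idi1* (-0.13 and -0.12) lost the call with little change in the estimate. Under TPM scaling 11 of 13 were called, without *Hsp90b1* (from -0.20 to -0.14) and *Idi1* (from -0.13 to -0.07). With the bone score as a covariate 12 of 13 were called, without *Hsp90b1*, whose estimate was again -0.20.

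The genes most like each member over the 11 libraries, by Pearson r of deviations from genotype means among 13610 other genes averaging 1 FPKM or more, included *Huwe1* and *Ankrd17* for *Atf6* (r = 0.99 and 0.98). For *Atf6b* they were *Cactin*, *Igfbp4* and *Cacna1g* (0.92, 0.91 and 0.90). The genes for *Creb3* were *Nek8*, *Usf2* and *Eif2b2* (0.97, 0.96 and 0.95). *Creb3l1* was followed most closely by *Bglap2*, *Bgn* and *Srpx2* (0.96, 0.96 and 0.95), the first of which is in the bone list. *Creb3l2* had *Cpd*, *Setbp1* and *Vit* (0.97, 0.96 and 0.96). *Mbtps1* had *Nr1d1*, *Fbxw8* and *Arhgap10* (0.99, 0.99 and 0.97), and *Mbtps2* had *Rabgap1l*, *Actr2* and *Ogt* (0.96, 0.95 and 0.95). These are the highest of many correlations over few libraries, which share composition and scaling.

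Promoter windows from RefSeq (GRCm38.p6, 300 bases around the start) matched 5 of the 7 members. The windows of *Atf6b* and *Creb3l2* are shown because these members were called higher by the unadjusted rule. Both strands were searched for short motifs. The ATF6 motif TGACGTGG was in 0.676% of all 32851 windows, and the cyclic AMP response element TGACGTCA was in 1.79%. The NF-Y motif CCAAT was in 37.4% of windows. The ER stress element, CCAAT followed 9 bases later by CCACG, was in 0.119%. The core ACGTG was in 19.6% of windows. The core TGACGT was in 7.51%, and TGACGTGG contains both cores. None of the 5 member windows held TGACGTGG, TGACGTCA or the ER stress element. Capitals mark the NF-Y motif and both cores on either strand. *Atf6b* held 1 NF-Y motif and 2 overlapping matches of the first core, and *Creb3l2* held 2 NF-Y motifs and 1 match of the second core. A match is a description of letters only.
Atf6b, chr17:34646896-34647195, + strand: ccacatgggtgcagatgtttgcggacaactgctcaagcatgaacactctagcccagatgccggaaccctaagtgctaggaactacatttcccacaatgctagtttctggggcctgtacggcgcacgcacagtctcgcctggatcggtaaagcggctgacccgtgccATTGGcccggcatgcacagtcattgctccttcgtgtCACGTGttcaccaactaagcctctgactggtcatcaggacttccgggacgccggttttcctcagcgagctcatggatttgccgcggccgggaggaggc
Creb3l2, chr6:37442099-37442398, - strand: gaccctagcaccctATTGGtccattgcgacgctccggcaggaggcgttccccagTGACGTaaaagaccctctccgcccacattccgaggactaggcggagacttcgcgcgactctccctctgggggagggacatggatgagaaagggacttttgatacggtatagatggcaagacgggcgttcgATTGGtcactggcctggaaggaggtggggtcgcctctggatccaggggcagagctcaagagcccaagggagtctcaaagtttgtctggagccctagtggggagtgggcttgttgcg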

How the data were processed

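The authors extracted RNA with RNeasy kits and sequenced stranded mRNA libraries on the DNBSEQ platform. Per the submitters' processing notes, reads were aligned to GRCm39 with HISAT2 2.0.4, the deposited FPKM values were made with RSEM 1.2.12, and DESeq2 1.4.5 was the authors' test; the paper gives another RSEM version. Strand use in counting was not stated. Counts per library were not used here, so counting error is unknown.

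Here both tables were joined by NCBI gene identifier (11 libraries). A pseudocount of 0.1 FPKM was added, and genes whose mean reached 0.1 FPKM entered a two-sided limma 3.58.1 fit (mean-variance trend, R 4.3.3) of genotype alone, with Benjamini-Hochberg adjustment. For single values an exact two-sided permutation test was used. The limma fit was tested on simulated data, and the permutation test on fixed values with known answers. The members and lists were chosen with earlier results of these data known. Named genes were the members, genes of fixed lists that were called or most abundant, and the 3 genes most like each member, of which 1 is not reported here. A few others were named as examples or as exceptions (*Srebf2*, *Sar1b*), as list contents, as relatives (*Creb3l3*, *Creb3l4*) or because they overlap a member. Alternatives were pseudocounts of 1 and 0.01, other filters, scaling to TPM or by median ratios, robust variance, a replicate block, marrow, bone and Y-linked scores as covariates, and leaving out each library. Python 3.11.15 was used for other steps.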

Additional observations from a re-analysis of the deposited data

Results flagged for a closer look

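In 56 group summaries examined, a single library stood far from the rest of its group in 4, where chance gives about 1 in 20. None of these was a member. *Atf6*-/- replicate 4 had 1191 summed FPKM of the neutrophil list, against 339.5 FPKM for the next highest of its own group, although 2 of 5 *Atf6*+/+ libraries were higher. The values set against those below are also the next highest within the group. *Atf6*+/+ replicate 5 had 46394 FPKM of the erythroid list, against 16105. *Atf6*+/+ replicate 4 had 6576 FPKM of the Schwann cell and myelin list, against 5769. *Atf6*-/- replicate 3 had 35.4 FPKM of the skeletal muscle list, against 2.67.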

How the results depend on the processing

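Over 22 alternatives, *Atf6* stayed lower with an adjusted limma p of at most 0.0423, and *Atf6b*, *Creb3l1*, *Creb3l2* and *Mbtps1* stayed higher with none past an adjusted p of 0.05, although *Mbtps1* fell from 0.07 to 0.0041 with the marrow score. *Creb3* turned from -0.04 to 0.019 and *Mbtps2* from -0.04 to 0.015 on the log2 scale under TPM scaling, by limma and by the exact permutation test alike. With single libraries left out, *Mbtps2* lay between -0.11 and 0.016, turning only without *Atf6*+/+ replicate 3. The cause was not tested.

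Genes with an adjusted p under 0.05 numbered 11, and 6 with the marrow score. Genes called by the unadjusted rule numbered 1592, and 862 with the marrow score (320 higher and 542 lower). TPM scaling gave 1389 higher and 439 lower. Replicate numbers were not taken to pair libraries, since same-numbered libraries did not deviate together in every pair (r from -0.21 to 0.12). With a replicate block, which drops *Atf6*-/- replicate 6 in effect, 4 genes had an adjusted p under 0.05. By the unadjusted rule 420 were then called higher and 658 lower. *Creb3l2* had a log2 fold change of 0.26 with this block and was not called.

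TPM values were 1.86 to 2.16 times the FPKM values, so differences in sums are also given in percent of the *Atf6*+/+ mean. The sum of *Atf6* and *Atf6b* differed by -2.33 FPKM (-5.44%), and after TPM scaling by -1.43 TPM (-1.66%, exact permutation p = 0.496). The summed *Creb3*, *Creb3l1* and *Creb3l2* differed by 4.01 FPKM (7.37%), after TPM scaling by 12.9 TPM (11.9%), and by 3.24 to 5.56 FPKM with single libraries left out. Depth limits cannot be given without counts.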

Other observations

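The summed FPKM of 4 Y-linked genes (*Ddx3y*, *Eif2s3y*, *Kdm5d* and *Uty*) was 15.6, 39.6, 41.0, 33.4 and 0.22 in the *Atf6*+/+ libraries. It was 0.24, 0.29, 0.36, 34.8, 35.7 and 37.2 in the *Atf6*-/- libraries. Libraries at low and at high values were thus present in both genotypes but in unequal numbers, and *Atf6*+/+ replicate 1 lay between them. The study states that each of its groups held more than a single animal of either sex. Only 1 of 5 *Atf6*+/+ libraries was near 0, and the sex of the animals behind these libraries was not given. With the Y-linked score in the model, *Atf6b* was higher by 0.11 and *Creb3l2* by 0.35 on the log2 scale (limma adjusted p = 0.330 and 0.316), and the value for the X-linked protease gene *Mbtps2* was -0.03.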
